A study of Mus musculus with 7 samples.

Results

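Matrix metalloproteinases (MMPs) are secreted or membrane-bound enzymes that cut collagens, laminins, elastin and other proteins of the extracellular matrix, and the tissue inhibitors of metalloproteinases (TIMPs) bind and block them. RNA of 7 MMP genes (Mmp2, Mmp3, Mmp9, Mmp10, Mmp12, Mmp13 and Mmp14) and 3 TIMP genes (Timp1, Timp2 and Timp3) is described here in s/c mouse PDA tumors. The 10 genes were taken from a list of matrix protease and inhibitor genes by matching the Ensembl identifiers of the count table to mouse symbols. All 10 are among the 22628 mouse genes of the table, and all 10 passed the filter on low counts with 17489 genes in all.

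The RNA-seq data cover 7 tumors taken 2 weeks after s/c inoculation of young C57BL/6 mice, 3 formed with sgScramble PDA cells (tumors 1, 4 and 5) and 4 formed with sgScramble-icOVA PDA cells (tumors 15, 16, 18 and 2). The cells of both groups were 1242 KPC cells, a line from a pancreatic tumor of a genetically engineered mouse with the Pdx1-Cre driver, and they carried SpCas9 and a scrambled control guide. The sgScramble-icOVA cells also carried a doxycycline-inducible vector for a cytoplasmic ovalbumin with GFP, were sorted and cloned from single cells, and were induced with doxycycline food from the day of inoculation. The comparison asks how the tumor RNA differed when the PDA cells expressed this foreign antigen. Whether the 3 control tumors were formed with a clone or with vector-carrying cells, and whether their hosts received doxycycline, is not given in the sources used here, so that antigen, vector, clone, drug and inoculum cannot be told apart.

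OVA counts followed the labels, at 85 to 151 in sgScramble tumors against 3413 to 10750 in sgScramble-icOVA tumors. Total counts ran from 30904855 to 37510591 per tumor, and the 10 genes had between 273 counts, for Mmp10 in tumor 18, and 33453 counts, for Mmp14 in the same tumor. The epithelial markers of PDA cells (Epcam, Krt8, Krt19 and 5 others) were present in every tumor, at a summed level of 4631 to 4933 CPM (the count of a gene scaled to the size of the library) in the sgScramble tumors and 2934 to 5000 CPM in the sgScramble-icOVA tumors, with the lowest value in tumor 18. The labels do not say that each tumor came from a separate mouse, so p values measure the spread between these samples. In bulk tumor RNA, fewer cells of a type and less RNA per cell cannot be told apart, and RNA levels do not measure the activity of proteases, which are made as inactive precursors.

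As background, the MMPs of this list fall into classes by substrate. Mmp3 and Mmp10 are stromelysins, which cut proteoglycans, laminin and fibronectin and activate other MMPs. Mmp13 is a collagenase of fibrillar collagen, Mmp2 and Mmp9 are gelatinases of denatured collagen and basement membrane, and Mmp12 is the elastase of macrophages. Mmp14 is anchored in the membrane and, with Timp2 as a bridge, activates the precursor of Mmp2. In carcinomas much of the MMP RNA is made by fibroblasts and myeloid cells, and the inducible MMP genes are classical targets of the transcription factor AP-1, a dimer of Fos and Jun proteins.

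Mmp3, Mmp10, Mmp12 and Mmp13 lie together on chromosome 9. In the GENCODE annotation of GRCm38, Mmp13 runs from 7272514 to 7283331, Mmp12 from 7344381 to 7369499, Mmp3 from 7445822 to 7455975 and Mmp10 from 7502352 to 7510240, all on the plus strand. Because these neighbours each have the AP-1 sequence near a start site, the 120 bases before their RefSeq start sites (GRCm38.p6, plus strand) are shown, with the AP-1 sequence TGACTCA, or its reverse complement TGAGTCA, in capitals, and the same stretch of Mmp14 is shown as a member without it.
Mmp13, chr9:7272394-7272513: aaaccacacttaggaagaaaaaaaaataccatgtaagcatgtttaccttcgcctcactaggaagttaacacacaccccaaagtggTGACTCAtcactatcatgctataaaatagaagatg
Mmp12, start 2 of 2, chr9:7347254-7347373: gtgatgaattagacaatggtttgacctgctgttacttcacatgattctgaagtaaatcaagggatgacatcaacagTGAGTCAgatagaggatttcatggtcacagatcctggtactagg
Mmp3, chr9:7445702-7445821: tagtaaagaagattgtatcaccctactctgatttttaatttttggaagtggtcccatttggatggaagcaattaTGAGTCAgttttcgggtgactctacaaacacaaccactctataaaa
Mmp10, chr9:7502222-7502341: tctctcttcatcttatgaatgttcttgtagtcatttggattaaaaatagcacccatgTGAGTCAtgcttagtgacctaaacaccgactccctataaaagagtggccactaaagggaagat
Mmp14, chr14:54431478-54431597: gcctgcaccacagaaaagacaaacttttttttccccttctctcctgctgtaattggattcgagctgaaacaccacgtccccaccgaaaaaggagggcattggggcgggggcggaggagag
The first base of the match was at -35 in Mmp13, -44 in Mmp12, -46 in Mmp3 and -63 in Mmp10, counted from the start site. The shown Mmp12 stretch lies in an intron of the annotated gene, before the second of its RefSeq start sites, and the window of the first, at the start of the annotated gene, does not hold the sequence. Of the 10 genes, 8 matched an entry of the RefSeq promoter table, and over the full window from 250 bases before to 50 after the start, both strands searched, 4 of the 8 held the sequence (4 of their 9 promoters) and Mmp14, Timp1, Timp2 and Timp3 did not. It was present in 5.95% of the 27025 genes and 5.2% of the 32851 promoters of the table. A match describes letters in this window and not binding of the factor. Mmp2 and Mmp9 had no entry.

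Levels of different genes were compared as CPM per kilobase (kb) of annotated exons. Over the 7 tumors Mmp3 had the highest mean level, 141 ± 56.5 CPM per kb (SD, n = 7), followed by Timp2 with 130 ± 26.6, Mmp2 with 104 ± 78.1, Mmp13 with 103 ± 64.8, Timp1 with 94.8 ± 17.5 and Mmp14 with 89.9 ± 36 CPM per kb. Neighbours in this order differed by less than the larger of their SDs. Timp3, with 19.7 ± 4.83 CPM per kb, Mmp9 with 18.3 ± 6.65, Mmp12 with 11.4 ± 4.08 and Mmp10 with 9.30 ± 5.14 formed a lower set, in which Timp3 and Mmp9, and likewise Mmp12 and Mmp10, differed by less than their SD and the ranges of Mmp9 and Mmp12 overlapped. The lowest tumor value of the upper 6 genes, 33.3 CPM per kb for Mmp13 in tumor 15, was above the highest of the lower 4, 28.8 CPM per kb for Mmp9 in tumor 4. Divided by the longest transcript instead of all exons, Mmp14 came first with a mean of 165.5 CPM per kb and Mmp3 second. The order within the upper set thus depended on the length used, and so did the gap between the tumor values of the sets. By the longest transcript, Timp3 had 45.1 CPM per kb in tumor 15, above the 33.3 of Mmp13 in that tumor.

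Of the 10 genes, only Mmp3 passed the test between the groups, and it was higher in sgScramble-icOVA tumors. Its level was 165, 186 and 96.8 CPM in sgScramble tumors 1, 4 and 5 and 309, 336, 346 and 337 CPM in sgScramble-icOVA tumors 15, 16, 18 and 2. Every icOVA tumor was above every sgScramble tumor, and the icOVA tumors lay close together, the highest being 1.12 times the lowest, against 1.93 times among the sgScramble tumors. The mean was 332 ± 16 CPM in icOVA tumors (SD, n = 4) against 149 ± 46.8 CPM in sgScramble tumors (SD, n = 3), a 2.22-fold difference with a 95% interval of 1.60 to 3.08. On the log2 scale the difference, icOVA over sgScramble, was 1.15 with an SE of 0.20 (adjusted p = 0.0285, edgeR quasi-likelihood test, Benjamini-Hochberg adjustment over all genes tested).

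**Figure D1:**
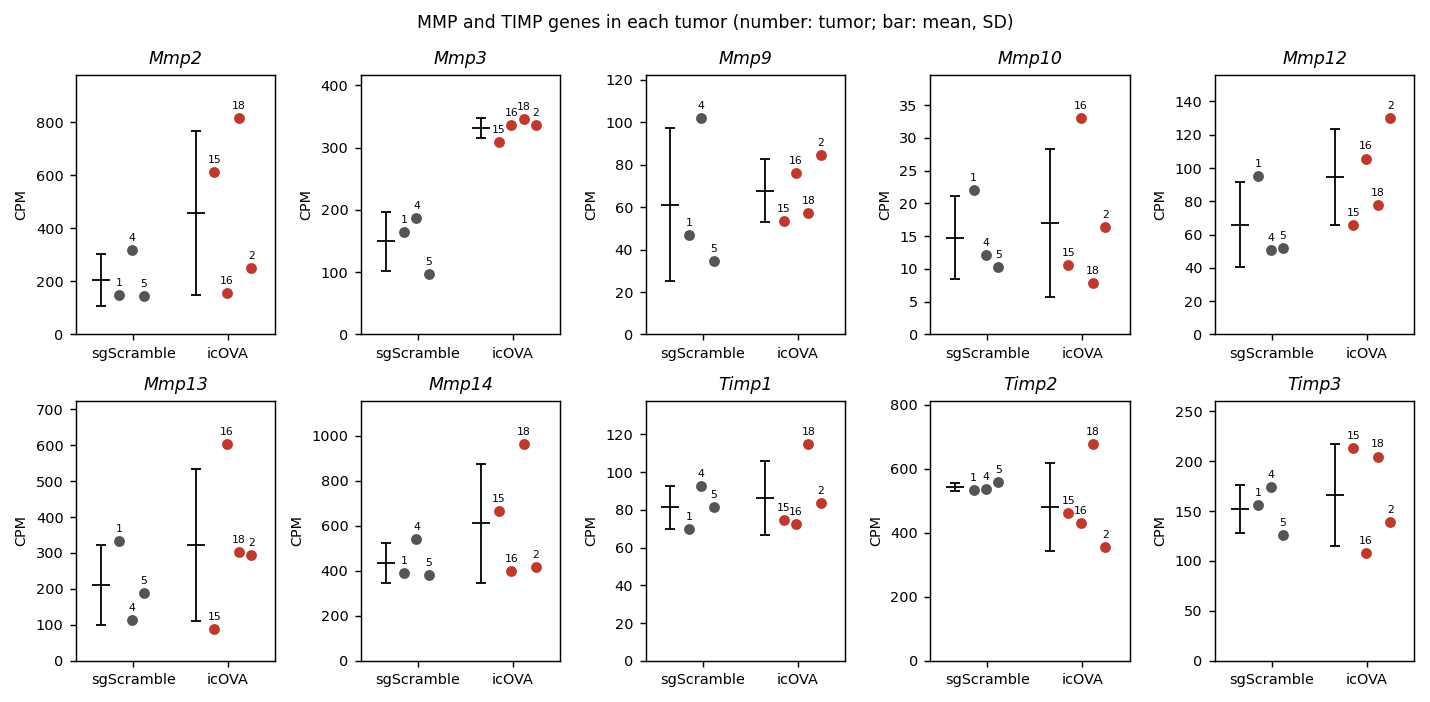
CPM (vertical axis, from 0 in each panel) of each of the 10 genes in each tumor, sgScramble in gray and sgScramble-icOVA (icOVA) in red, with the tumor number at each point and the group mean and SD as a bar. In the Mmp3 panel the 4 icOVA tumors sit between 309 and 346 CPM, above the 3 sgScramble tumors, and in the other panels the groups overlap.

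Thus 1 of 10 genes was called higher and 0 were called lower by edgeR, where 3.36% of all genes tested were called higher and 2.54% lower. At an unadjusted p below 0.05 in edgeR the count was again 1 higher and 0 lower, and the share of all genes was not computed there. DESeq2 also called 1 higher and 0 lower, against 8.95% and 7.3% of its 17348 genes. Scaling to Tbp moved the split over all genes from 588 higher and 444 lower to 631 higher (3.61%) and 199 lower (1.14%), and the 10 genes kept 1 higher and 0 lower. The median log2 fold change was 0.34 over the 10 genes and -0.0048 over all genes tested. Of the 10 values 9 were positive, where 8641 of all 17489 genes tested were. The positive values of Mmp9, Mmp10, Timp1 and Timp3 were small and changed sign in fits with 1 tumor left out. Mmp3 was also the 1 gene of the 10 with no overlap between the groups, where 11.3% of all genes tested had every icOVA tumor above every sgScramble tumor and 13.3% every icOVA tumor below.

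The call of Mmp3 depended on which tumors were included, although its size changed little. When single tumors were left out, the log2 difference was lowest without sgScramble tumor 5, at 0.92, and highest without sgScramble tumor 4, at 1.35. Its adjusted p from edgeR was 0.130 without sgScramble tumor 1, 0.111 without sgScramble tumor 5, 0.0840 without icOVA tumor 15 and 0.0681 without icOVA tumor 2. In those 4 fits few genes of any kind passed, 0 of all genes in the first 3 and 8 in the last. Mmp3 passed without tumor 4, 16 or 18.

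The T cell markers (Cd3e, Trac and 5 others) and macrophage markers (Adgre1, Csf1r and 6 others) also separated the groups. The summed T cell markers were at 61.9 to 88.7 CPM in sgScramble tumors and 137 to 223 CPM in icOVA tumors, with 7 of 7 genes called higher. Summed macrophage markers were at 988 to 1376 CPM and 1445 to 2047 CPM, with 2 of 8 genes called higher. Of all genes tested, 3.36% were called higher and 11.3% had every icOVA tumor above every sgScramble tumor. Over the 7 tumors Mmp3 and the T cell sum had a Pearson r of 0.854 (exact permutation p = 0.0161, adjusted 0.146). Their Spearman rho was 0.75 (exact permutation p = 0.0663, adjusted 0.400). With the macrophage sum r was 0.767 and rho 0.86 (exact permutation p = 0.0526 and 0.0238, adjusted 0.263 and 0.284). The adjustment was over 100 relations of genes with marker lists. For deviations from the group means r was 0.029 and 0.17. Mmp3 and the sum of the neutrophil markers listed below had an r of 0.780 and a rho of 0.57. The exact permutation p values were 0.0357 and 0.2 (adjusted 0.229 and 0.620). This r was 0.58 for deviations and -0.15 without tumors 1 and 5. With the B and plasma cell sum r was 0.672 and rho 0.79 (exact permutation p = 0.0950 and 0.0480, adjusted 0.376 and 0.369). For deviations that r was -0.46. Within the icOVA group Mmp3 was lowest in tumor 15, where the T cell sum was highest, and highest in tumor 18, like the macrophage sum. The highest icOVA tumor had only 1.12 times the Mmp3 of the lowest, too little to read a pattern from this order. Within the sgScramble group Mmp3 was lowest in tumor 5 while the T cell and macrophage sums were lowest in tumor 1. Summed fibroblast markers, at 1579 to 2573 CPM and 1219 to 4523 CPM, overlapped, with 0 of 8 genes called, and tumor 16, the lowest for fibroblast markers, had 336 CPM of Mmp3. None of the T cell, macrophage or fibroblast markers was at 0 in any tumor. The part of these cells, and of neutrophils and B cells, in the Mmp3 difference was not tested.

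Mmp10, the other stromelysin and the neighbour of Mmp3 on chromosome 9, did not differ between the groups beyond the spread. It had 22, 12.1 and 10.2 CPM in the sgScramble tumors and 10.6, 33.0, 7.85 and 16.4 CPM in icOVA tumors 15, 16, 18 and 2. Tumor 16 was the highest and tumor 18 the lowest, both in the icOVA group. The log2 difference of 0.20 had an SE of 0.50 (adjusted p = 0.824, edgeR) and became -0.35 without tumor 16, and its 95% interval of -0.96 to 1.36 holds the value of Mmp3. Whether the genes differed in their response was not tested.

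Mmp13, the fibrillar collagenase, varied more than any of the other 9 genes, with 6.77 times between the highest and lowest tumor. It had 332, 113 and 188 CPM in the sgScramble tumors and 89.1, 603, 302 and 294 CPM in icOVA tumors 15, 16, 18 and 2. The extremes, tumors 15 and 16, were both icOVA tumors, and the sgScramble values lay within the icOVA range (log2 difference 0.61, SE 0.60, adjusted p = 0.540, edgeR). Leaving out tumor 16 gave 0.11 and leaving out sgScramble tumor 1 gave 1.10. Mmp12, the macrophage elastase, had 95.3, 50.7 and 51.7 CPM in the sgScramble tumors and 66.0, 106, 77.7 and 130 CPM in the icOVA tumors. The value of sgScramble tumor 1 lay within the icOVA range and the others below it, and the log2 difference, 0.53 with an SE of 0.30, did not pass (adjusted p = 0.296, edgeR). The exons of Mmp12 overlap those of Mmp1b on the opposite strand, a gene with 0 to 10 counts per tumor.

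Mmp2, a gelatinase whose estimated difference was near that of Mmp3, did not pass the test and varied widely within the icOVA group. It had 148, 317 and 146 CPM in the sgScramble tumors and 612, 158, 816 and 249 CPM in icOVA tumors 15, 16, 18 and 2. Tumors 15 and 18 were far above all others, and tumors 16 and 2 lay within the sgScramble range. The means were 459 ± 309 CPM in icOVA tumors (SD, n = 4) against 204 ± 98.0 CPM in sgScramble tumors (SD, n = 3), and the log2 difference of 1.17, with an SE of 0.59 and an edgeR adjusted p of 0.241, had a 95% interval of -0.19 to 2.53. It was 0.74 without tumor 18 and 1.65 without sgScramble tumor 4, and it did not pass in either fit. Mmp2 runs from 92827291 to 92853420 on chromosome 8.

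Mmp14, the membrane-bound activator of Mmp2, was high in the same tumors. It had 388, 539 and 382 CPM in the sgScramble tumors and 664, 399, 962 and 417 CPM in icOVA tumors 15, 16, 18 and 2 (log2 difference 0.48, SE 0.32, adjusted p = 0.359, edgeR). The 7 tumors stood in the same order for Mmp2 and Mmp14. Over the 7 tumors the log2 CPM values had a Pearson r of 0.965 (exact permutation p = 0.000198, 0.00893 adjusted over 45 pairs of the 10 genes) and a Spearman rho of 1 (exact permutation p = 0.000397, adjusted 0.0179), and this was the 1 pair of the 45 to pass by either measure. Without tumors 15 and 18 r was 0.898, and for deviations from the group means it was 0.961.

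**Figure D2:**
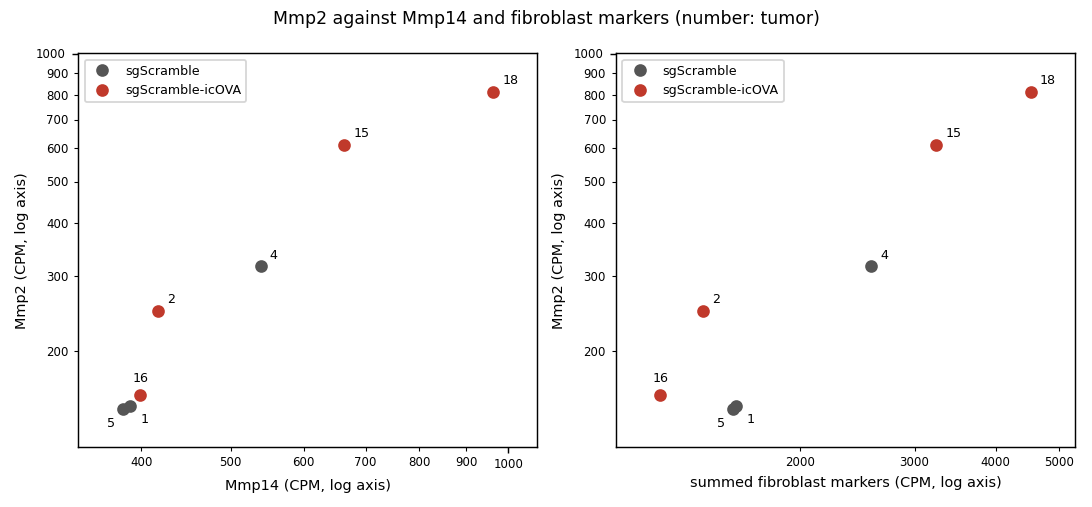
Mmp2 (CPM, log axis) against Mmp14 (left, CPM, log axis) and against the summed CPM of 8 fibroblast markers (right, log axis), 1 point per tumor with its number, sgScramble in gray and sgScramble-icOVA in red. Tumors 15 and 18 are highest on all axes, and tumors 1, 5 and 16 are lowest for Mmp2 and Mmp14.

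Fibroblast markers (Pdgfra, Dcn, Fap and 5 others) moved with these genes across tumors. Their sum was 1591, 2573 and 1579 CPM in the sgScramble tumors and 3238, 1219, 4523 and 1417 CPM in icOVA tumors 15, 16, 18 and 2. Mmp14 had a Pearson r of 0.961 with the log2 of this sum (exact permutation p = 0.00337) and a Spearman rho of 0.71 (exact permutation p = 0.0881), with r at 0.851 without tumors 15 and 18. Mmp2 had an r of 0.930 (exact permutation p = 0.00337) and a rho of 0.71 (exact permutation p = 0.0881), and its r fell to 0.670 without those tumors. Adjusted over 100 relations of the 10 genes with 10 marker lists, p was 0.0675 for these r values and 0.400 for these rho values, and none of the 100 passed. The part of fibroblast content in the levels of Mmp2 and Mmp14 was not tested. Endothelial markers (Pecam1, Cdh5 and 5 others), at 206 to 297 CPM in sgScramble tumors and 230 to 607 CPM in icOVA tumors, were also highest in tumors 15 and 18. With their sum Mmp2 had a higher r and rho than with the fibroblast sum, 0.955 and 0.93 (exact permutation p = 0.00159 and 0.00675, adjusted 0.0675 and 0.135), and its r was 0.822 without tumors 15 and 18. For Mmp14 they were 0.901 and 0.93 (exact permutation p = 0.00754 and 0.00675, adjusted 0.108 and 0.135), with r at 0.503 without those tumors. The macrophage sum also moved with both genes, with a rho of 0.86 for each (exact permutation p = 0.0238, adjusted 0.284). Its Pearson r was 0.888 with Mmp2 and 0.845 with Mmp14 (exact permutation p = 0.00972 and 0.0141, adjusted 0.122 and 0.141). Without tumors 1 and 18 these r values were 0.817 and 0.739. The T cell sum had a rho of 0.82 with each (exact permutation p = 0.0341, adjusted 0.284). Its r was 0.744 with Mmp2 and 0.630 with Mmp14 (exact permutation p = 0.0631 and 0.129, adjusted 0.287 and 0.476). Without tumors 1 and 5 these r values were 0.528 and 0.410. The parts of endothelial, macrophage and T cell content were not tested either.

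Mmp9, the gelatinase found in granules of neutrophils, had 46.9, 102 and 34.5 CPM in the sgScramble tumors and 53.2, 75.9, 57.2 and 84.5 CPM in icOVA tumors 15, 16, 18 and 2. The sgScramble group held both the highest and the lowest tumor, tumors 4 and 5, and the log2 difference was 0.15 with an SE of 0.36 (adjusted p = 0.820, edgeR). Its sign depended on the tumors, being -0.13 when sgScramble tumor 5 was left out and 0.74 when sgScramble tumor 4 was. Summed neutrophil markers (S100a8, S100a9, Csf3r and 5 others) were at 54.6, 110 and 53.8 CPM in the sgScramble tumors and 101, 126, 86.3 and 111 CPM in the icOVA tumors, so tumors 1 and 5 were lowest for both. Ly6g, Ngp and Camp of this list were at 0 in at least 1 tumor, and 0 of the 5 genes tested were called. The Pearson r of Mmp9 with the sum was 0.846 and the Spearman rho 0.82 (exact permutation p = 0.0139 and 0.0341, adjusted 0.141 and 0.284), and r was 0.600 without tumors 1 and 5.

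The inhibitors varied by 1.64 to 1.97 times between the highest and lowest tumor, against 2.52 to 6.77 times for the MMPs, and none passed the test between the groups. Timp1, a secreted inhibitor of most MMPs, had 69.9, 92.4 and 81.4 CPM in the sgScramble tumors and 74.7, 72.2, 115 and 83.8 CPM in icOVA tumors 15, 16, 18 and 2. Tumor 18 stood above the rest, and the log2 difference was 0.09 with an SE of 0.17 (adjusted p = 0.774, edgeR) and a 95% interval of -0.32 to 0.49. In that tumor the epithelial marker sum was the lowest, and over the 7 tumors Timp1 and this sum had a Pearson r of -0.895 (exact permutation p = 0.00179, adjusted 0.0675) and a Spearman rho of -0.93 (exact permutation p = 0.00675, adjusted 0.135), with r at -0.755 without tumors 4 and 18. Mmp14 and Mmp2 also had a negative r with this sum, -0.822 and -0.704 (exact permutation p = 0.0482 and 0.0381, adjusted 0.254 and 0.229). Their rho was -0.75 each (exact permutation p = 0.0663, adjusted 0.400). Without tumors 4 and 18 their r was 0.0099 and -0.223.

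Timp2, which bridges Mmp14 and the Mmp2 precursor, was the 1 gene of the 10 with a negative estimate. The sgScramble tumors were nearly equal, at 534, 538 and 557 CPM, and icOVA tumors 15, 16, 18 and 2 had 462, 430, 677 and 355 CPM. Tumor 18 was above and the other 3 icOVA tumors were below all sgScramble tumors, and the log2 difference was -0.18 with an SE of 0.20 (adjusted p = 0.600, edgeR) and a 95% interval of -0.63 to 0.28. Over the 7 tumors Timp2 had a Pearson r of 0.892 with the skin keratinocyte sum, which was at 1.80 to 2.85 CPM in all tumors (exact permutation p = 0.00337, adjusted 0.0675), and a Spearman rho of 0.96 (exact permutation p = 0.00278, adjusted 0.135), with r at 0.797 without tumors 5 and 18. Timp3, which binds the matrix and also blocks ADAM proteases, had 156, 174 and 126 CPM in the sgScramble tumors and 213, 108, 205 and 139 CPM in the icOVA tumors (log2 difference 0.13, SE 0.24, adjusted p = 0.769, edgeR). Like Mmp2 and Mmp14 it was high in tumors 15 and 18, and its Pearson r with the fibroblast sum was 0.918 and its Spearman rho 0.93 (exact permutation p = 0.00437 and 0.00675, adjusted 0.0728 and 0.135), with r at 0.853 without those tumors. The exons of Timp3 overlap those of Syn3 on the opposite strand, with 5 to 69 counts, and Timp1 and Timp2 overlap Syn1, with 40 to 74 counts, and Cep295nl, with 39 to 60 counts, outside exons.

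**Figure D3:**
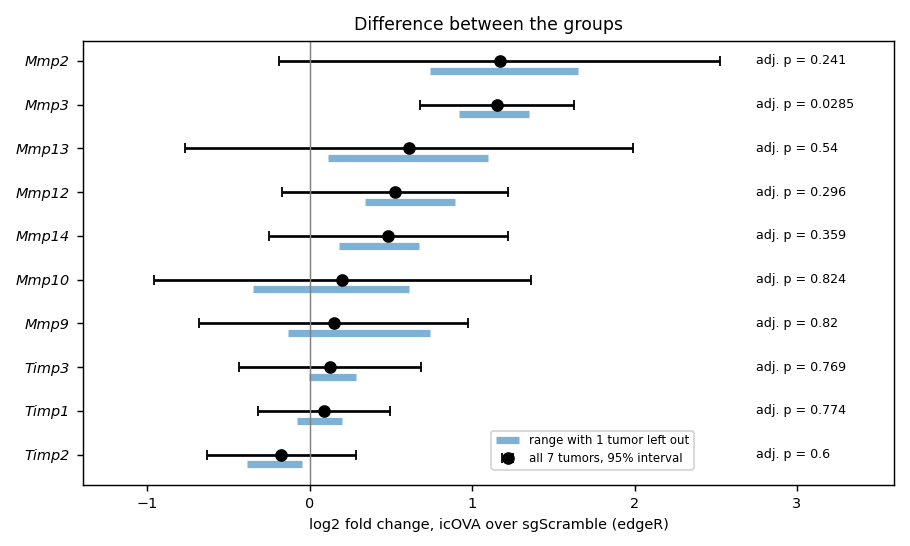
Log2 fold change of each gene, sgScramble-icOVA over sgScramble (horizontal axis), from edgeR with all 7 tumors (black point, with the 95% interval as a line), the range of values with 1 tumor left out (blue bar) and the adjusted p. The interval of Mmp3 lies above 0, from 0.68 to 1.62, and the other 9 intervals include 0.

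The balance of the summed MMP to the summed TIMP levels per kb was computed as a description without a test, since the choice of genes and the length of each gene enter it. The ratio was 1.55, 1.42 and 1.02 in the sgScramble tumors and 2.31, 2.83, 2.25 and 2.43 in icOVA tumors 15, 16, 18 and 2, so the groups did not overlap. For comparison, 24.7% of all single genes tested had no overlap in CPM, 11.3% with icOVA higher. Of the genes in the ratio only Mmp3 passed the test between the groups. Without Mmp3 in the sum it was 1.16, 1.02 and 0.802 against 1.56, 1.92, 1.67 and 1.51, and with the longest transcript as the length it was 1.69, 1.62 and 1.18 against 2.54, 2.96, 2.55 and 2.60. The gene with the largest share of the MMP sum was not the same in all icOVA tumors. Mmp2 led in tumors 15 and 18 with 34.4% and 32.7%, Mmp13 in tumor 16 with 38.8%, and Mmp3 in tumor 2 with 38%. Among sgScramble tumors Mmp13 led in tumors 1 and 5 with 34.1% and 27.6%, and Mmp3 in tumor 4 with 27.7%.

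**Figure D4:**
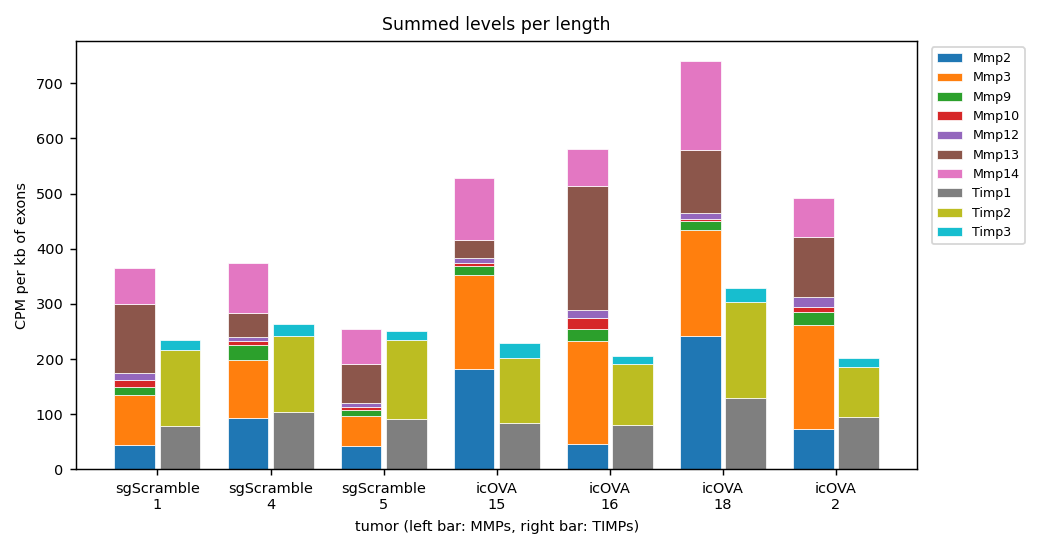
Stacked levels of the 7 MMP genes (left bar of each tumor) and the 3 TIMP genes (right bar), in CPM per kb of annotated exons, for each of the 7 tumors. The MMP bar is 2.25 to 2.83 times the TIMP bar in the icOVA tumors and 1.02 to 1.55 times in the sgScramble tumors, and Mmp2 and Mmp13 (blue and brown) change most from tumor to tumor.

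The heat map sets these patterns side by side. The genes that were high in tumors 15 and 18 and low in tumor 16, Mmp2, Mmp14 and Timp3, shared this pattern with the fibroblast and endothelial sums, and the adipocyte sum was likewise highest in tumors 18 and 15, at 82.3 and 68.9 CPM, and lowest in tumor 16, at 28.9 CPM. Mmp10, Mmp12 and Mmp13, the neighbours of Mmp3 on chromosome 9, were above their mean in tumors 1, 16 and 2 and below it in tumors 4, 5 and 15. The Pearson r over the 7 tumors was 0.724 for Mmp12 with Mmp13, 0.659 for Mmp10 with Mmp13 and 0.625 for Mmp10 with Mmp12 (exact permutation p = 0.0716, 0.109 and 0.133, adjusted 0.435, 0.439 and 0.439), and the Spearman rho values were 0.68, 0.54 and 0.57 (exact permutation p = 0.110, 0.236 and 0.200, adjusted 0.548, 0.619 and 0.619). Without the 2 tumors farthest from the median of the first gene, these r values were 0.752, 0.00524 and 0.50, so that the relation of Mmp10 with Mmp13 rested on tumors 1 and 16. Mmp3 varied by 1.12 times within the icOVA group, too little to place it in either pattern there. Over the 7 tumors its Pearson r was 0.604 with Mmp12, 0.252 with Mmp13 and 0.150 with Mmp10. The exact permutation p values were 0.146, 0.592 and 0.749 (adjusted 0.439, 0.792 and 0.842). With Mmp2 and Mmp14 its r was 0.558 and 0.481 (exact permutation p = 0.197 and 0.283, adjusted 0.482 and 0.604).

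**Figure D5:**
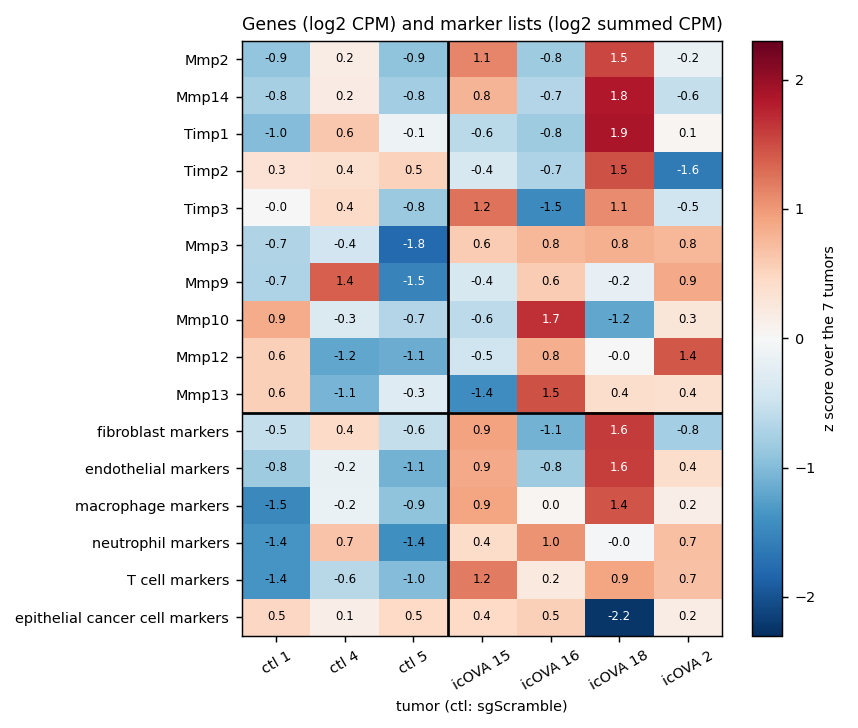
Z scores over the 7 tumors (color and printed value) of log2 CPM of the 10 genes (top) and of the log2 summed CPM of 6 marker lists (bottom), tumors in columns with sgScramble (ctl) on the left. Mmp2, Mmp14 and the fibroblast markers are above 0 in tumors 4, 15 and 18, and Mmp3 is below 0 in every sgScramble tumor and above 0 in every icOVA tumor.

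The genes most like each member in log2 CPM over the 7 tumors, among 14127 genes with a mean of at least 50 counts, are given as a description, since every member had genes with a high r among so many. The 30 genes had Pearson r values from 0.928 to 0.998. Nearest to Mmp2 were Tgfbr2, a receptor of TGF-beta, Arsi and Ctsk, a collagen-cutting cathepsin of the list below (r 0.997, 0.997 and 0.997). Nearest to Mmp14 were Hoxc6, Serpinh1, the collagen chaperone HSP47, and Evc. For Mmp3 they were Gm43328, Fanca, a DNA repair gene, and Zfp36, an RNA-binding protein that destabilizes inflammatory mRNAs. For the other MMPs they were Nr4a1, Lasp1 and Tcp11x2 (Mmp9), Ern1, Smcr8 and Cars (Mmp10), Rlim, Mx2 and Klra4 (Mmp12), and Dnajc7, Kcnk2 and Gad2 (Mmp13). For the inhibitors they were Kti12, Timm13 and Ranbp3 (Timp1), Irs1, Mapk8ip1 and Rilp (Timp2), and Pcdhga12, Zfp944 and Magi2 (Timp3).

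Other genes of matrix proteolysis were read from the same fit, in 6 lists of 96 genes, of which 87 were tested. Of these, 9 were called higher and 2 lower in icOVA tumors by edgeR (3.36% and 2.54% of all genes tested), and DESeq2 called 25 higher and 7 lower (8.95% and 7.3% of its genes). Of the 14 cathepsins and cystatins, the lysosomal proteases of matrix turnover and their inhibitors, 5 were called higher and 0 lower by edgeR, and 7 and 0 by DESeq2, with a median log2 fold change of 0.36. At an unadjusted p below 0.05 in edgeR the counts were 8 and 0. The share of all genes tested at this unadjusted threshold was not computed. The unadjusted counts of this and the other lists therefore have no baseline and cannot be read as an excess. Cst7, an inhibitor of cathepsins in immune cells, rose 0.96 on the log2 scale (SE 0.14, adjusted p = 0.0230, edgeR), from 7.09 ± 0.528 CPM (SD, n = 3) to 13.8 ± 1.72 CPM (SD, n = 4). Ctss, the cathepsin of antigen-presenting cells, rose 0.70 (SE 0.11, adjusted p = 0.0271, edgeR), from 802 ± 83.3 CPM (SD, n = 3) to 1300 ± 130 CPM (SD, n = 4), and Ctsz rose 0.43 (SE 0.06, adjusted p = 0.0235, edgeR). The macrophage marker sum was higher in the same tumors, and its part in these changes was not tested.

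Of the 13 other MMPs and MMP inhibitors tested, 0 were called higher and 1 lower by edgeR, and 4 and 1 by DESeq2, with a median log2 fold change of 0.33. At an unadjusted p below 0.05 in edgeR 4 were higher and 2 lower. The gene that edgeR called lower was Mmp7, matrilysin, an MMP of epithelial cells. It was near the detection limit, with counts of 20, 12 and 19 in sgScramble tumors against 4, 4, 1 and 5 in icOVA tumors 15, 16, 18 and 2 (log2 difference -2.31, SE 0.46, adjusted p = 0.0351, edgeR). Mmp7 had no value with DESeq2, so the gene that DESeq2 called lower was a different gene. Of 18 ADAM and ADAMTS proteases, 1 was called higher and 0 lower by edgeR (4 and 1 at an unadjusted p below 0.05), and 4 and 1 by DESeq2, with a median of 0.33. Adam8, a membrane protease of leukocytes, had 98.9, 97.9 and 79.2 CPM in the sgScramble tumors and 133, 157, 150 and 151 CPM in the icOVA tumors (log2 difference 0.68, SE 0.10, adjusted p = 0.0230, edgeR). Of 10 plasminogen activation genes, whose product plasmin can activate MMP precursors, 1 was called higher and 0 lower by edgeR (3 and 1 at an unadjusted p below 0.05), and 1 and 1 by DESeq2, with a median of 0.18. S100a10, part of a surface receptor for plasminogen, rose 0.36 on the log2 scale (SE 0.07, adjusted p = 0.0370, edgeR), and its adjusted p was 0.0550 when scaled to Tbp.

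Of 18 cytokines, receptors and transcription factors that induce MMP genes, 2 were called higher and 1 lower by edgeR (7 and 3 at an unadjusted p below 0.05), and 7 and 2 by DESeq2, with a median log2 fold change of 0.22. Osm, the cytokine oncostatin M, had 4.63, 3.58 and 3.33 CPM in the sgScramble tumors and 6.27, 7.02, 7.05 and 9.42 CPM in the icOVA tumors (log2 difference 0.95, SE 0.20, adjusted p = 0.0381, edgeR). Ets1, a transcription factor of lymphocytes and stroma, rose 0.42 on the log2 scale (SE 0.08, adjusted p = 0.0347, edgeR). Junb, a subunit of AP-1, had 111, 109 and 88.8 CPM in the sgScramble tumors and 67.1, 80.4, 79.7 and 77.6 CPM in the icOVA tumors, and its log2 difference, -0.43 with an SE of 0.10, was at the threshold (adjusted p = 0.050, edgeR). It did not pass with limma-voom, upper-quartile scaling, scaling to Tbp, no filter or robust dispersion (adjusted p 0.0509 to 0.131). Of 14 matrix proteins cut by MMPs, such as collagens and fibronectin, 0 were called by edgeR, 2 were higher and 3 lower at an unadjusted p below 0.05, and DESeq2 called 2 higher and 2 lower, with a median log2 fold change of 0.38. All 11 genes called in the 6 lists lost the call in each of the 4 fits without sgScramble tumor 1, sgScramble tumor 5, icOVA tumor 15 or icOVA tumor 2, as Mmp3 did. Among the named genes, Ets1, Osm and Junb also lost it without sgScramble tumor 4 (adjusted p = 0.0507, 0.0606 and 0.0907, edgeR) and Junb without icOVA tumor 18 (adjusted p = 0.0558, edgeR).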

How the data were processed

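RNA of 7 s/c tumors was sequenced by the authors, who deposited raw counts, whole and not normalized, for 22629 rows of genes, of which 1 is OVA. The labels name polyA RNA and the methods a stranded total RNA kit. The build was mm10 in the submitters' processing notes. The aligner, counter, annotation and use of strand are not given in the sources used here. Symbols, exon lengths and coordinates came from GENCODE on GRCm38. Genes were filtered with filterByExpr (minimum count 10, minimum total 15), scaled by TMM and compared with the quasi-likelihood test of edgeR 4.0.16 in R 4.3.3 without covariates, with Benjamini-Hochberg adjustment over 17489 genes and a threshold of 0.05. Log2 CPM had a prior count of 2. Correlations had exact two-sided permutation tests (scipy 1.17.1). The edgeR step was tested on simulated data. Alternatives were DESeq2 1.42.0, limma-voom (limma 3.58.1), other scalings and filters, robust dispersion and leaving out each tumor. Named were the 10 genes, overlapping genes, up to 3 called genes per related list with the lowest p, and the 3 genes most like each member. The members and lists were chosen with earlier results of these data known. No counts within a group were identical or within sampling noise of each other.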

Additional observations from a re-analysis of the deposited data

Results flagged for a closer look

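Among 20 sets of 4 icOVA tumor values (the 10 genes and the 10 marker lists), 2 had a tumor that stood apart by Dixon's criterion, where chance gives about 1 in 20. The log2 of the summed epithelial marker CPM was 11.52 in sgScramble-icOVA tumor 18 and 12.18 to 12.29 in the other icOVA tumors, a gap of 0.863 of the range. Tumor 18 had the highest Mmp2, Mmp3, Mmp14, Timp1 and Timp2 of the 7 tumors, and without it Mmp3 was still called higher (adjusted p = 0.0364, edgeR). The log2 of the summed skin keratinocyte marker CPM was 1.51 in tumor 18 and 0.851 to 0.877 in the other icOVA tumors, a gap of 0.960 of the range, from 3 genes in the table of which 1 passed the filter. None of the 10 MMP and TIMP genes had such a tumor.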

How the results depend on the processing

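No paired analysis was possible because the tumor numbers of the groups are not shared. With all tumors kept, 80 of 80 values of the 10 genes over 8 alternatives stayed on the same side of 0 and of the threshold, and 64 of 70 values of the 9 named related genes did so (the exceptions were 5 of Junb and 1 of S100a10). Mmp7 had no value with DESeq2 or with at least 10 counts in every tumor, and the other called related genes, Ctsc and Ctsd, were not followed singly. With 1 tumor left out, 59 of 70 values of the 10 genes did so, 4 values of Mmp3 lost the threshold, and 7 small values changed sign. Those were Mmp9, from -0.13 to 0.74 over the left-out tumors (-0.0089 without sgScramble tumor 1, -0.13 without sgScramble tumor 5), Mmp10, from -0.35 to 0.61 (-0.00092 without sgScramble tumor 5, -0.35 without icOVA tumor 16), Timp1, from -0.077 to 0.20 (-0.0052 without sgScramble tumor 1, -0.077 without icOVA tumor 18), and Timp3, from -0.0062 to 0.29 (-0.0062 without icOVA tumor 15). Of the 10 genes, 0 to 1 were called higher and 0 lower. For the related genes, 9 called higher became 25 with DESeq2, and 2 called lower became 7 with DESeq2 and 1 with scaling to Tbp, with no filter and with robust dispersion. With 1 tumor left out these counts ran from 0 to 13 and from 0 to 5. The counts of 0 came without sgScramble tumor 1, sgScramble tumor 5, icOVA tumor 15 or icOVA tumor 2, where 0, 0, 0 and 8 of all genes passed. The cause was not tested. Depth did not limit the 10 genes, which had at least 273 counts in every tumor, but Mmp7 had at most 20.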

Other observations

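The other marker lists cover B cells and tissues next to a s/c tumor. B and plasma cell markers were low, with a sum of 1.91 to 3.45 CPM in sgScramble tumors and 4.04 to 12.8 CPM in icOVA tumors, and 2 of 5 tested genes were called higher, with Mzb1 at 0 in at least 1 tumor. Of all genes tested, 3.36% were called higher. Skeletal muscle markers differed widely between tumors of the same group, from 2.94 to 95 CPM in sgScramble tumors and from 2.18 to 168 CPM in icOVA tumors, with 0 of 7 genes called. Adipocyte markers were at 37.9 to 40.4 CPM and 28.9 to 82.3 CPM, with 0 of 5 tested genes called and Lep at 0 in at least 1 tumor. Skin keratinocyte markers were at 2.16 to 2.69 CPM and 1.80 to 2.85 CPM, with 0 of 1 tested gene called. The part of these tissues in the MMP and TIMP levels was not tested.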
